A study of Homo sapiens with 6 samples.

Results

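The 10 genes described here encode enzymes that make serine, glycine, folate-bound one-carbon units, asparagine and proline: PHGDH, PSAT1, PSPH, SHMT1, SHMT2, MTHFD2, MTHFD1L, ASNS, PYCR1 and ALDH18A1. They were chosen by name, with earlier results of these data known. All 10 were found among the 61267 genes of the count table and among the 21905 genes that passed the filter on low counts. The labels give all RNA as coming from THP-1, an established line of human monocytic leukemia cells, grown in 1640 medium with serum. The cells of all 6 libraries had received the phorbol ester PMA at 100 ng/ml for 48 hours, after which these cells attach and become macrophage-like. The labels give 2 groups of 3 libraries, NC and KD, and name no target or method for KD. The series title names METTL1, an enzyme that places 7-methylguanosine in RNA.

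Serine is built from the glycolytic intermediate 3-phosphoglycerate by PHGDH, PSAT1 and PSPH in turn. The SHMT enzymes then split serine into glycine and a one-carbon unit carried on folate. Inside mitochondria, where SHMT2 acts, MTHFD2 and MTHFD1L pass this unit on to formate, for the making of purines and thymidylate. ASNS makes asparagine from aspartate and glutamine, while ALDH18A1 and PYCR1 turn glutamate into proline. Many of these genes are known targets of ATF4, the transcription factor of the amino acid response, and the pathway is known for feeding nucleotide synthesis in dividing cells and glycine and glutathione supply in macrophages.

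Some facts about the libraries come before the results. Total counts ran from 37628972 to 42970216 per library. Levels are given in CPM, the share of a library's counts scaled with TMM factors, which set the typical gene level between libraries. METTL1 stood at 14.8 ± 1.01 CPM (mean ± SD, n = 3) in the NC libraries and at 13.7 ± 0.605 in the libraries labelled KD. Its log2 fold change of -0.10 did not pass (edgeR adjusted p = 0.216, but -0.29 with an adjusted p = 0.00249 when library sizes alone set the scale, and -1.31 on the leukocyte scale described below), so the label KD was not matched by this gene, and every direction below compares KD with NC as the labels assign them. Of 20 markers of neural, epithelial and embryonic cells, 19 were lower and 1 was higher in KD. Their summed level was 3020 to 3460 CPM in NC and 45.2 to 49.6 CPM in KD, and LIN28B, POU3F3, PAX3, ID4 and GALNT13 had no count in any KD library. CDKN2A, a gene known to be lost in THP-1 cells, stood at 36.2 ± 0.954 CPM in NC and 0.110 ± 0.0964 in KD. Of 79 genes restricted to leukocytes, 76 were higher and 0 lower in KD (summed level 5470 to 5660 CPM in NC and 13900 to 14200 in KD), and of 15 tested macrophage markers 14 were higher and 0 lower. The 3 tested B cell markers were lower in KD (summed level of the list 5.02 to 5.34 CPM in NC and 2.03 to 2.90 in KD). Of 4 tested T and NK cell markers 3 were higher and 0 lower (3.98 to 5.10 CPM in NC and 15.5 to 16.9 in KD), and CD3E and CD3G had no count in any library. The fibroblast and endothelial list summed to 142 to 149 CPM in NC and 448 to 453 in KD, most of it PECAM1, which leukocytes also express, and PDGFRA. The neural and epithelial markers were high in all 3 NC libraries, so no comparison without them can be made, and their part in the results below was not tested. Whether the NC libraries also hold RNA of a second cell line cannot be told apart from the difference between the labels, and this bears on every NC value below. In bulk RNA, fewer cells of a type and less RNA per cell cannot be told apart.

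Of the 10 enzyme genes, 9 were lower in the libraries labelled KD and 0 were higher. Of all tested genes, 40.3% were lower, 36.2% higher and 76.5% either by the same rule (edgeR quasi-likelihood test, Benjamini-Hochberg adjusted p of 0.05). The median log2 fold change of the 10 genes was -1.96, against -0.05 over all tested genes. Their summed level was 983 to 997 CPM in the NC libraries and 404 to 420 CPM in the KD libraries. The falls ran from 1.82-fold for SHMT2 to 8.57-fold for ASNS, and MTHFD2 was the 1 gene that did not pass. For the 9 genes that fell, each KD library was below each NC library, a pattern seen in 41.3% of all tested genes (78% in either direction). At least 2-fold falls were called for 7 of the 10 genes, against 22.9% of all tested genes. Since the genes were chosen with earlier results known, these shares describe the set and do not test it.

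**Figure D1:**
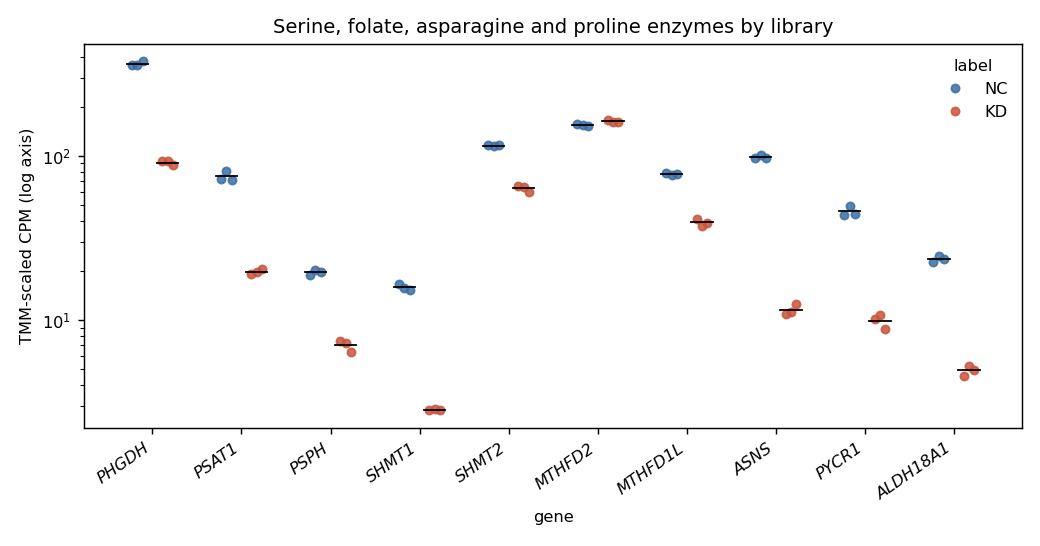
Level of each of the 10 enzyme genes in the 6 libraries, as TMM-scaled CPM on a log axis, with 1 point per library and a line at the group mean. The KD points (red) lie below the NC points (blue) for 9 genes and slightly above them for MTHFD2.

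PHGDH, the first and committed enzyme of serine synthesis (chromosome 1, 119648411 to 119744218, plus strand, GRCh38), was the most abundant of the 10 in NC. It stood at 359, 358 and 377 CPM in NC replicates 1 to 3 and at 93.0, 93.0 and 87.5 CPM in KD replicates 1 to 3. The groups lay far apart, and each group's libraries stayed close together. The log2 fold change was -2.00, SE 0.043 (edgeR adjusted p = 1.89e-22). PSAT1, the aminotransferase that follows it (chromosome 9, 78297125 to 78330093, plus strand), fell from 75.1 ± 5.34 to 19.7 ± 0.763 CPM (mean ± SD, n = 3 each). PSPH, the phosphatase that releases serine (chromosome 7, 56011051 to 56051604, minus strand), fell less, from 19.5 ± 0.624 to 7.01 ± 0.554 CPM. The 95% intervals of the log2 fold changes of PHGDH (-2.08 to -1.92) and PSAT1 (-2.04 to -1.82) overlapped, and that of PSPH (-1.64 to -1.32) lay apart from both. PSPH has a related pseudogene, PSPHP1, whose row held 8 to 22 counts per NC library and 17 to 38 per KD library. That was at most 15.1% of the PSPH count in the same library. How many PSPH reads were assigned wrongly or lost is not known, which leaves the PSPH level and its change uncertain. In the same NC libraries the insulin receptor substrate IRS4, a gene of the neural and epithelial list, stood at 164 CPM, against 0.169 CPM in KD.

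The pair of serine hydroxymethyltransferases differed in size of change. SHMT1, the cytosolic form (chromosome 17, 18327860 to 18363563, minus strand), stood at 16.7, 15.7 and 15.2 CPM in the NC replicates and at 2.82, 2.86 and 2.81 CPM in the KD replicates. All 3 KD libraries were within a narrow band, though each held only 111 or 112 counts. The SHMT1 row shares 197 of its 7015 exon bases with SMCR8 on the other strand. SMCR8 held 2672 to 2810 counts in the NC libraries and 2918 to 3181 in the KD libraries. Its reads could be mixed with those of SHMT1 if counting ignored strand. The SHMT1 fall was 5.61-fold (log2 fold change -2.49, SE 0.098, edgeR adjusted p = 1.92e-17). SHMT2, the mitochondrial form (chromosome 12, 57229573 to 57234935, plus strand), stood at 116, 115 and 117 CPM in NC and at 65.4, 65.0 and 60.2 CPM in KD. Its fall was smaller, at 1.82-fold (log2 fold change -0.86, SE 0.043, edgeR adjusted p = 1.83e-15). The SHMT2 row shares 352 of its 4592 exon bases with an unnamed gene on the other strand, whose reads could be mixed with its own if counting ignored strand.

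Of the mitochondrial folate enzymes downstream of SHMT2, MTHFD2 did not pass and MTHFD1L fell 1.98-fold. MTHFD2, the dehydrogenase and cyclohydrolase known to be high in embryonic and dividing cells (chromosome 2, 74186172 to 74217565, plus strand), was at 157, 155 and 153 CPM in NC and at 165, 161 and 161 CPM in KD. The 3 KD values were all above the 3 NC values, by a small margin. The log2 fold change was 0.07 with a 95% interval of -0.01 to 0.15, and it did not pass (edgeR adjusted p = 0.108). Its sign depends on the scale: with library sizes alone it was -0.12 (edgeR adjusted p = 0.00543). The MTHFD2 row shares 1324 of its 11443 exon bases with SLC4A5 and 295 with an unnamed gene, both on the other strand. Reads of these genes could be mixed with those of MTHFD2 if counting ignored strand. MTHFD1L, which turns formyl-folate into formate (chromosome 6, 150865679 to 151101887, plus strand), fell from 77.9 ± 1.38 to 39.4 ± 1.93 CPM. The intervals of MTHFD1L (-1.07 to -0.89) and SHMT2 (-0.95 to -0.78) overlapped, and neither reached those of the serine synthesis enzymes or of MTHFD2.

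ASNS showed the largest fall of the 10. Asparagine synthetase (chromosome 7, 97851677 to 97872542, minus strand) stood at 97.0, 102 and 97.7 CPM in NC and at 10.9, 11.1 and 12.5 CPM in KD. No library of one group came near the other. The change on the log2 scale was -3.10, SE 0.055 (edgeR adjusted p = 5.08e-24), and its interval (-3.21 to -2.99) lay below those of the other 9 genes. Of all tested genes, 7.04% had a lower log2 fold change. ASNS shares 2415 of its 4896 exon bases with ENSG00000284707 on the same strand, so part of its reads cannot be assigned to 1 gene. That gene held 4461 to 4878 counts in the NC libraries and 850 to 1079 in the KD libraries, which exceeded the ASNS count by 353 to 464 in NC and by 421 to 585 in KD. The ASNS pseudogene ASNSP1 was counted too, with 55 to 84 counts in NC and 0 in KD.

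The glutamate-to-proline enzymes fell together. PYCR1, the mitochondrial pyrroline-5-carboxylate reductase (chromosome 17, 81932384 to 81942412, minus strand), stood at 43.7, 49.5 and 44.6 CPM in NC and at 10.2, 10.8 and 8.79 CPM in KD. ALDH18A1, the synthase that makes its substrate (chromosome 10, 95605941 to 95656711, minus strand), fell from 23.6 ± 0.921 to 4.93 ± 0.358 CPM. Their log2 fold changes were -2.21 with an SE of 0.072 and -2.26 with an SE of 0.083, with overlapping intervals. PYCR1 shares 408 of its 2886 exon bases with MYADML2 on the same strand, which held 2 to 13 counts per library. It shares 450 with an unnamed gene on the other strand, which held 12 to 47. In the order of change, SHMT1, ALDH18A1, PYCR1, PHGDH and PSAT1 formed a chain in which each interval overlapped the next, between ASNS below and PSPH above. In the same libraries the desmosome gene DSP, of the neural and epithelial list, averaged 389 CPM for NC and 3.42 CPM for KD.

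The scale decides how large these falls are. A change of scale shifts all genes by about the same amount, so distances from the typical gene stay as they are by arithmetic. That they stay is no check of the results. A scale that sets the 79 leukocyte-restricted genes level moved the median log2 fold change of all tested genes from -0.05 to -1.25, and 83.3% of all tested genes were then lower, 3.46% higher and 86.8% either. On it all 10 enzyme genes were lower, from -1.13 for MTHFD2 to -4.30 for ASNS. With library sizes alone all 10 were lower too, as were 47.3% of all tested genes, with 28.4% higher and 75.7% either. Relative to the median gene, ASNS was at -3.05 and PHGDH at -1.95 on that scale, on TMM and with library sizes alone. MTHFD2 was 0.11 above the median gene on the leukocyte scale, where 54.6% of tested genes had a lower log2 fold change than MTHFD2. SHMT2 was at -0.82 and MTHFD1L at -0.94 relative to the median gene on the TMM scale.

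**Figure D2:**
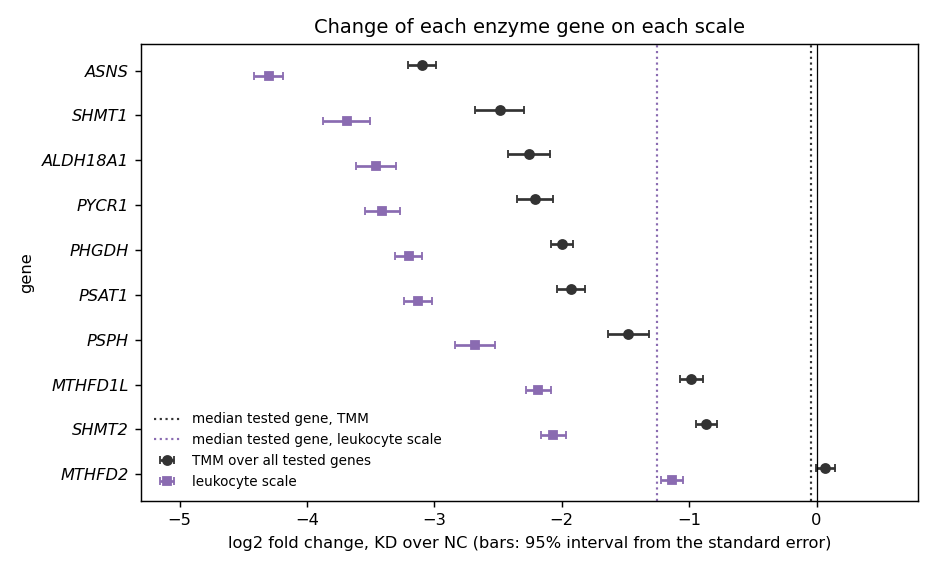
Log2 fold change, KD over NC, of each enzyme gene on the TMM scale (circles) and on the scale that sets leukocyte-restricted genes level (squares), with bars for the 95% interval from the standard error and dotted lines for the median tested gene on each scale. All 10 genes shift left by about the same amount as the median gene, which any change of scale brings about. ASNS lies farthest left and MTHFD2 lies beside the median on both scales.

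Levels were compared between genes per kilobase of exon, as CPM divided by exon length. The exon length in the table covers every annotated exon, so genes with long alternative exons read low. In NC the order was PHGDH (39.7 ± 1.13 CPM per kilobase), PSAT1 (34.0 ± 2.42), SHMT2 (25.2 ± 0.233) and ASNS (20.2 ± 0.518), followed by MTHFD1L, PYCR1, MTHFD2, PSPH, ALDH18A1 and SHMT1. MTHFD1L (15.9 ± 0.282) and PYCR1 (15.9 ± 1.08) overlapped there, and all other neighbours in that order were apart. In KD the order began with MTHFD2 (14.2 ± 0.182) and SHMT2 (13.8 ± 0.638), which overlapped, and went on with PHGDH (9.92 ± 0.349), PSAT1 (8.93 ± 0.346) and MTHFD1L (8.06 ± 0.396). Next came PYCR1 (3.44 ± 0.353), then PSPH (2.54 ± 0.201) and ASNS (2.35 ± 0.178), whose libraries overlapped, then ALDH18A1 and SHMT1. ASNS thus held rank 4 in NC and rank 8 in KD. Of the summed level per kilobase of the 10 genes, MTHFD2 made up 7.35% to 7.74% in the NC libraries and 21.6% to 22.1% in the KD libraries, while ASNS made up 11.1% to 11.3% and 3.38% to 4.01%.

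Ratios between isozyme genes within a library do not depend on the scaling of libraries. SHMT2 exceeded SHMT1 by 10.6, 11.1 and 11.7 times per exon base in the NC replicates and by 35.4, 34.8 and 32.7 times in the KD replicates. The mitochondrial form therefore outweighed the cytosolic form more in each KD library than in any NC library, by 3.08-fold on average. MTHFD2 to its close relative MTHFD2L went from 13.2 ± 1.61 to 8.11 ± 0.622 (mean ± SD, n = 3 each), and MTHFD2L itself was higher in KD (17.3 ± 1.06 against 10.1 ± 1.23 CPM, edgeR adjusted p = 1.39e-08; -0.43 on the leukocyte scale). MTHFD1 is the cytosolic enzyme with all 3 folate activities. The ratio of MTHFD1L to it went from 1.57 ± 0.0711 to 1.15 ± 0.0288, and the ratio of MTHFD2 to it from 1.33 ± 0.0521 to 2.02 ± 0.0464. The height of these ratios depends on exon lengths of 17357 bases for MTHFD1, 4891 for MTHFD1L and 11443 for MTHFD2, while their change does not. In NC replicate 1 the counts of MTHFD1, MTHFD1L and MTHFD2 were 7208, 3338 and 6621. In KD replicate 1 they were 4905, 1631 and 6490. The groups did not overlap in any of these 4 ratios, each with an exact two-sided permutation p of 0.1 (adjusted p = 0.1 over the 5 pairs computed), the smallest that 3 libraries against 3 allow.

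**Figure D3:**
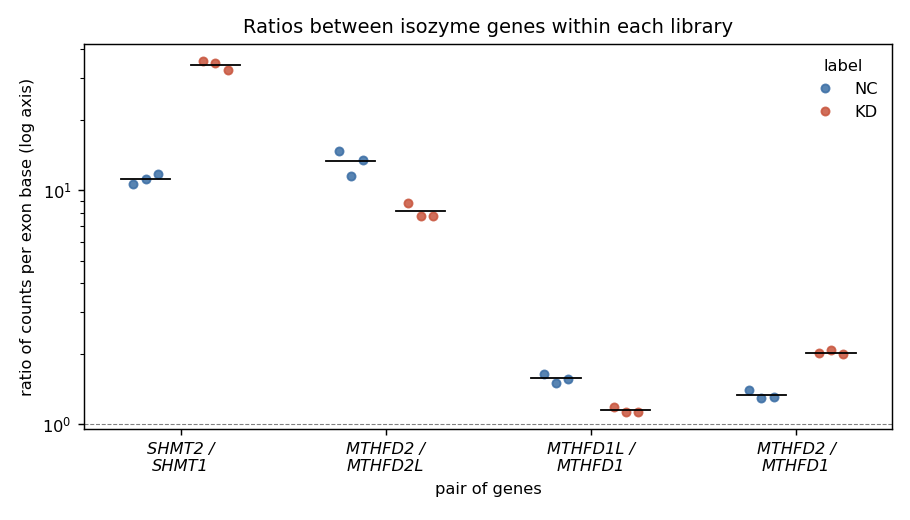
Ratio of 2 related genes within each library, as counts per exon base on a log axis, with 1 point per library, a line at each group mean and a dashed line at a ratio of 1. SHMT2 to SHMT1 and MTHFD2 to MTHFD1 are higher in each KD library than in any NC library, and the other 2 ratios are lower. The height of a ratio against the dashed line depends on the exon lengths.

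Genes around these enzymes were counted in lists. On the leukocyte scale all tested members of the 6 metabolic lists in this and the next paragraph were lower, as were 83.3% of all tested genes. By TMM, 36.2% of all tested genes were higher and 40.3% lower, and the list counts are to be read beside these shares. Of 17 tested serine and glycine genes, 3 were higher and 11 lower in KD (median log2 fold change -0.74). All 4 genes of the glycine cleavage system, which breaks down glycine to a one-carbon unit, are in this list and were lower. GLDC, its decarboxylase, fell from 14.7 ± 0.271 to 0.754 ± 0.103 CPM, and GCSH, its lipoyl carrier, from 29.5 ± 1.65 to 5.55 ± 0.498 CPM. The changes of AMT (-1.09) and DLD (-0.38) were smaller. Serine racemase SRR also fell (-1.53), while the neutral amino acid transporter SLC38A2 was higher on the TMM scale (0.82, but -0.38 on the leukocyte scale). Of 16 tested folate genes 6 were higher and 9 lower (median -0.87). The thymidylate synthase TYMS (-1.31), the mitochondrial formyl-folate dehydrogenase ALDH1L2 (-1.76) and the methionine synthase MTR (-1.48) were among those that fell. Of 12 purine synthesis genes 1 was higher and 11 lower (median -0.94), with PFAS (-2.58), PAICS (-1.34), ADSL (-1.30) and GART (-1.28) among the falls. All 10 genes of a proliferation list were lower as well, with a median log2 fold change of -1.69, near that of the 10 enzyme genes. Their summed level was 1310 to 1350 CPM in NC and 592 to 627 in KD, and their part in these falls was not tested.

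Methionine and transsulfuration genes were divided, with 4 higher and 5 lower of 9 tested (median -0.59). CBS and CTH, which carry the sulfur of homocysteine to cysteine using serine, fell from 84.1 ± 0.972 to 14.4 ± 0.843 CPM and from 17.4 ± 1.11 to 1.91 ± 0.259 CPM, and AHCY (-0.80) fell too. MTAP, a methionine salvage gene and neighbour of CDKN2A on chromosome 9, fell from 22.3 ± 1.73 to 0.288 ± 0.147 CPM. Of 9 proline genes 2 were higher and 4 lower (median 0.02, and -0.16 with library sizes alone). The collagen prolyl hydroxylases P4HA1 (0.98) and P4HA2 (0.70) were the higher ones, both below 0 on the leukocyte scale, while the ornithine aminotransferase OAT (-0.28) fell. Of 10 tested genes of asparagine, glutamine and aspartate 2 were higher and 6 lower (median -0.76). ASRGL1, which breaks asparagine down, fell from 15.5 ± 0.810 to 1.12 ± 0.180 CPM, beside the aminotransferases GPT2 (-1.80) and GOT2 (-1.63). In the same libraries LIN28B, of the neural and epithelial list, stood at 86.4 CPM in NC and had no count in KD. Its relation to these falls was not tested.

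**Figure D4:**
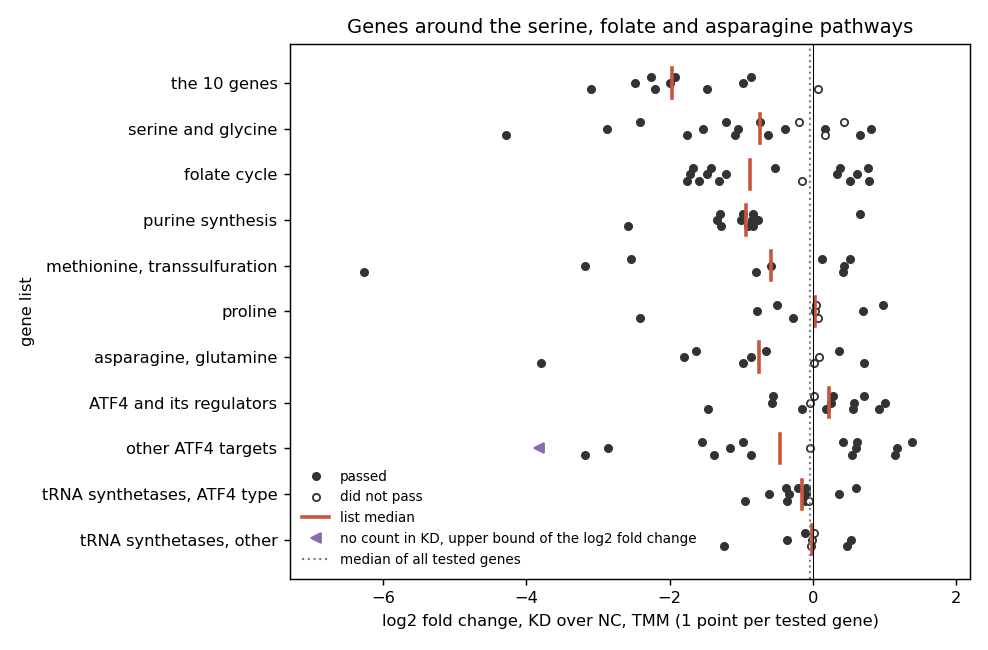
Log2 fold change, KD over NC on the TMM scale, of each tested gene in the 10 lists around the enzymes, below the 10 enzyme genes themselves. Filled points passed an adjusted p of 0.05, open points did not, red lines are list medians, and the triangle is FGF21, which had no count in KD and is drawn at its bound of -3.82. Among the lists drawn, the 10 enzyme genes have the lowest median, at -1.96. The proliferation list is not drawn.

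The ATF4 transcript fell from 573 ± 12.9 to 390 ± 14.2 CPM, a 1.47-fold difference. Of the 14 genes in the list of ATF4 and its regulators 8 were higher and 4 lower by TMM (median 0.22). Library sizes alone gave 5 higher and 6 lower, and the leukocyte scale put all 14 lower. The shares of all tested genes were 36.2% higher and 40.3% lower by TMM, and 28.4% and 47.3% with library sizes alone. On the leukocyte scale they were 3.46% and 83.3%. CEBPB, a partner and target of ATF4, was higher (1.00), as was PPP1R15A, which reverses the stress block on translation (0.93). The stress protein gene NUPR1 (-1.46) and CEBPG (-0.57) fell. The level of ATF4 protein is set largely by translation, which RNA counts do not show. Of 16 other ATF4 targets 7 were higher and 8 lower (median -0.45, also with FGF21 at its bound), while the leukocyte scale gave 1 higher against 13 lower. The secreted factor STC2 (-2.86), CTH (-3.18) and the stress sensor SESN2 (-1.38) fell, while the repressor JDP2 was higher (1.38, and 0.18 on the leukocyte scale). FGF21 was at least 14.1-fold lower, with 46 counts over the NC libraries and KD set at 3 counts over the group. This bound takes each count as a separate read and would be smaller if read pairs were counted as 2. Of 12 tRNA synthetases of the ATF4 type 2 were higher and 9 lower (median -0.16), with YARS1 (-0.95), IARS1 (-0.61) and CARS1 (-0.38) lower and WARS1 (0.60) higher. Of 8 other tRNA synthetases 2 were higher, VARS1 (0.53) and HARS1 (0.47), and 3 lower, among them FARSB (-1.25), with a median of -0.02. With library sizes alone, 6 of those 8 were lower. All 20 synthetases were lower on the leukocyte scale, as were 83.3% of all tested genes.

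The promoters of the enzyme genes were searched for the amino acid response element, the joint binding site of ATF4 and C/EBP factors, written TGATGNAA and read on both strands. RefSeq promoters (GRCh38.p14) were matched for 7 of the 10 genes, and the 250 bases before each listed start were searched. A match was found for ASNS and MTHFD1L and not for PHGDH, PSAT1, SHMT1, MTHFD2 or ALDH18A1 in these windows. Of all 35116 RefSeq promoters of this length, 3.14% hold it. That share counts promoters and not genes, and a gene with several listed starts was searched in several windows, which can overlap. The gene with the largest fall, the other gene with a match and the gene that did not pass are shown, 5′ to 3′ on the gene's strand, with the element in capitals. The windows are chr7:97872409-97872658 (minus strand), chr6:150866236-150866485 (plus strand) and chr2:74198365-74198614 (plus strand), of which 134, 55 and 5 bases lie in exons of the same gene in the deposited table.
ASNS: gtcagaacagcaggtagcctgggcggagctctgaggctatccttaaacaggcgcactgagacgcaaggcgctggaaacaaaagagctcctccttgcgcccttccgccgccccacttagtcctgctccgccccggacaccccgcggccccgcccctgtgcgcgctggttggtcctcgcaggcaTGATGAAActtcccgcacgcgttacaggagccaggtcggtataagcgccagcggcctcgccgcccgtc
MTHFD1L: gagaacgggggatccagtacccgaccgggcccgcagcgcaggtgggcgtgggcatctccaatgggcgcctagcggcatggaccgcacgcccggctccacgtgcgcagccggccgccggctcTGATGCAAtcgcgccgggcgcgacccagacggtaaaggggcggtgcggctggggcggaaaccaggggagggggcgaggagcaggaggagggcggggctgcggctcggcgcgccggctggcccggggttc
MTHFD2: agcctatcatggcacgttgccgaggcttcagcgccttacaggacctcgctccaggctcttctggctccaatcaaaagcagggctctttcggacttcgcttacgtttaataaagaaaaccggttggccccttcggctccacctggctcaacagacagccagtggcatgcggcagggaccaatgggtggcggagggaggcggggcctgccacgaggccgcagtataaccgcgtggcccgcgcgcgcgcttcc

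The element begins 68 bases before the start shown for ASNS, at the place known as the nutrient-sensing response element of this gene, and 129 bases before the start shown for MTHFD1L. It is in 1 of the 2 promoters listed for ASNS and in 2 of the 4 listed for MTHFD1L, 90 bases before the start in the other of these, so the windows of the remaining listed starts do not hold it. The 2 genes with a match fell by different amounts, 8.57-fold and 1.98-fold. The CACGTG E-box, found in 6.34% of all promoters of this length, was present in those of MTHFD1L and ALDH18A1. The CCAAT letters, on either strand, were found in 32% of all promoters and in those of PHGDH, PSAT1, SHMT1, MTHFD2 and MTHFD1L, with 3 matches in PSAT1. These matches describe the letters of the windows and are not measured binding.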

How the data were processed

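RNA of THP-1 cells was sequenced in 6 libraries, 3 labelled NC and 3 labelled KD. The submitters' processing notes name fastp 0.23.0 and the build GRCh38. Aligner, counter, annotation release and strand setting: not given in the sources used here. Values in the deposited table are raw counts per gene, which the authors did not normalize, with exon coordinates and exon length. Whether the 3 libraries of a group came from separate cultures is not in the labels. P-values therefore reflect only how far these libraries differ, which may be technical. Libraries of 1 group differed by more than sampling noise, with chi-square over its degrees of freedom at 3.24 to 6.46. Between 67.8% and 70.3% of counts from 1 to 20 were even numbers, so read pairs may have been counted as 2 (halved counts are an alternative).

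All 21905 genes kept by filterByExpr entered the test, edgeR 4.0.16 under R 4.3.3 (TMM, robust quasi-likelihood fit, two-sided, Benjamini-Hochberg threshold 0.05). The standard error is |log2 fold change|/√F. Intervals are 95% ones from the standard error. The leukocyte scale takes TMM factors from 79 leukocyte-restricted genes. Isozyme ratios were tested by exact permutation. Alternatives were DESeq2 1.42.0, limma-voom (limma 3.58.1), other scalings, filters and thresholds, halved counts, a replicate block and leaving out each library. The 10 genes and all lists were chosen with earlier results of these data known. Some genes of the lists are counted but not reported here by name. Named list genes are up to 4 per list with the smallest p, and genes named beyond them (ATF4, FGF21, AMT, DLD, SHMT and MTHFD relatives, markers and genes with shared exons) were named for an isozyme pair, a check or after their values were seen. The fit was tested on simulated data (21502 genes, 50 per fold size, 21302 left unchanged). It recovered 58% of the genes set to a fold of 1.25, 96% for a fold of 1.5 and 100% for the larger folds. Of the 21302 unchanged genes it called 6. In the libraries themselves 76.5% of tested genes were called, and how the fit performs when so many genes differ was not tested. Counting intervals and bounds cover counting error only.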

Additional observations from a re-analysis of the deposited data

How the results depend on the processing

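The count of 9 lower and 0 higher among the 10 genes was the same with DESeq2, limma-voom, DESeq2 size factors, both other filters, halved counts, an adjusted p of 0.01, a test against a fold of 1.5 and each of the 6 libraries left out. With library sizes alone and on the leukocyte scale it was 10 lower. MTHFD2 reversed under those 2 scalings, to -0.12 and -1.13, a change that the scalings themselves make, since they shift all genes about alike. For all tested genes, the leukocyte scale gave 758 higher and 18249 lower in place of 7934 and 8824, and a test against a fold of 1.5 gave 3939 higher and 5716 lower. Leaving out 1 library gave 7618 to 7787 higher and 8667 to 8874 lower. The replicate numbers did not pair the libraries (correlations of deviations of same-numbered libraries 0.0153, 0.00592 and -0.0138), and with the replicate block 9 of the 10 genes were lower, as were 8665 of all tested genes, with 7763 higher. The log2 change of SHMT2 over SHMT1 ran from 1.59 to 1.66 when 1 library was left out. Of the alternative counts of higher or lower genes in the lists around the enzymes, 308 stayed within 1.5 times and 32 did not. The 111 or 112 counts of SHMT1 per KD library give the widest standard error of the 10.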

Other observations

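The tested genes whose centred log2 CPM over the 6 libraries lay nearest to the median profile of the 10 enzyme genes were NCAPD2 and NCAPH, subunits of condensin, HLA-B, the ribosomal protein gene RPS4X and CDCA8 of the chromosomal passenger complex, at Euclidean distances of 0.0806 to 0.113. PHGDH and PSAT1 lay at 0.126. With 2 groups, such nearness mostly says that a gene changed by a like amount: NCAPD2 fell from 108 ± 2.38 to 27.5 ± 0.241 CPM and RPS4X from 579 ± 18.2 to 153 ± 5.76 CPM. HLA-B is polymorphic and can share reads with its relatives, which leaves its level uncertain.

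Carriers of the same metabolites did not all follow the enzymes. SFXN1, which brings serine into mitochondria, fell with a log2 fold change of -1.05 (SE 0.075, mean of 47.9 CPM in NC and 23.2 CPM in KD), and the plasma membrane folate carrier SLC19A1 fell from 10.1 ± 0.471 to 3.14 ± 0.307 CPM. SLC25A32, the mitochondrial folate carrier, was higher on the TMM scale (38.7 ± 1.07 against 59.1 ± 3.38 CPM) and at -0.59 on the leukocyte scale. These 3 genes were chosen after their values were seen.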
